A study of Mus musculus with 17 samples.

Results

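Bpgm and 5 other enzyme genes of red blood cells were followed in the plasma cell-free RNA (cfRNA) of mice of the Mouse Habitat Unit-1 mission. They were Car2, Cat, Prdx2, Gpx1 and Blvrb, the 6 being taken by gene name from 49585 annotated genes. Bpgm was chosen for its rise in 1 of the groups, so its differences from that group are given below as a description without a test. The libraries came from plasma of wild type C57BL/6J mice aged 13 weeks, 1 library per mouse: 6 mice kept on the International Space Station under artificial 1-G on a rotating platform (AG), 6 kept there in microgravity (MG) and 5 ground controls (GC). AG against MG addresses gravity in flight, and MG against GC addresses flight with microgravity together. A small RNA library kit was used because the RNA was degraded, and nothing in the labels gives a batch.

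Mature mammalian red cells have no nucleus and no mitochondria, and they live on glycolysis. Bisphosphoglycerate mutase, encoded by Bpgm, diverts a glycolytic intermediate into 2,3-bisphosphoglycerate, which lowers the oxygen affinity of hemoglobin. Carbonic anhydrase 2 (Car2) hydrates carbon dioxide for transport in blood. Catalase (Cat), peroxiredoxin 2 (Prdx2) and glutathione peroxidase 1 (Gpx1) remove peroxides formed around hemoglobin, and biliverdin reductase B (Blvrb) reduces flavins and biliverdin. Some of these genes, among them Cat and Gpx1, are also strongly expressed in liver and other tissues.

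In GRCm38, Bpgm lies on chr6:34476207-34505613 on the plus strand, with at most 3 exons in a transcript. Car2 lies on chr3:14886273-14900770 (plus), Cat on chr2:103453849-103485160 (minus), Prdx2 on chr8:84969587-84974834 (plus), Gpx1 on chr9:108338903-108340343 (plus) and Blvrb on chr7:27447978-27466144 (plus). Prdx2 was the 1 member whose exons overlapped other genes, Junb and Rnaseh2a, both on the opposite strand. It also shared 36-base stretches with the pseudogene Tdpx-ps1 over 6.08% of its sequence and with Prdx2-rs3 over 0.650%. Tdpx-ps1, Prdx2-rs3 and Rnaseh2a were listed at 0 reads and Junb at 14, and since the strand setting of the counting is not given, Prdx2 counts are uncertain. The other 5 members shared no 36-base stretch with any annotated transcript of another gene.

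The stretch just before the annotated start of Bpgm is printed because Bpgm is the gene that the results turn on. It is the RefSeq sequence of chr6:34476106-34476206 in GRCm38.p6, 101 bases of the plus strand that end 149 bases before the RefSeq start and next to the GENCODE start, with capitals marking the letters CCAAT on either strand.
Bpgm upstream: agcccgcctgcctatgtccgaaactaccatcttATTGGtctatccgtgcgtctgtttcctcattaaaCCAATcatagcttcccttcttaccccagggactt
The letters occurred 2 times in this stretch, and 13.7% of 32851 windows of the same length and distance from RefSeq gene starts held them at least once. GATAA and CACCC, searched on both strands, did not occur in it, and 11.2% and 24.9% of the windows held them. These matches describe letters only, and no binding was measured.

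The libraries were shallow, with 84657 to 277682 counted reads each. The 6 genes took 796 of 2749638 reads, and Bpgm took 58.8% of those 796. Bpgm had 468 reads and was detected in 17 of 17 libraries, and it ranked 89 among all genes by reads. Gpx1 had 153 reads in 15 libraries, Cat 104 reads in 17, Car2 26 reads in 13, Prdx2 26 reads in 11 and Blvrb 19 reads in 11. Of the 6, Bpgm and Gpx1 passed the expression filter that left 272 genes for the test across genes, so the other 4 were tested singly. The deposited tissue label is plasma, and markers of red cells were read in it: 4 globin genes gave 27485 reads and 24 other red cell markers gave 2299. Platelet markers gave 7984 reads, leukocyte markers 715, liver markers 1469, skeletal muscle markers 311 and kidney markers 24. In such bulk samples, fewer cells of a type and less RNA per cell cannot be told apart.

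The most abundant genes were Tmem38b, Rn18s-rs5, Polr2m and Lars2, all above 5% of the reads of some library. Their summed share differed between groups. It was 86.9% to 91.7% in AG, 70.6% to 83.5% in MG and 76.9% to 83.1% in GC, so a value relative to all reads depends on them. Values below are therefore given on several scales. TMM scaling in edgeR sets the totals so that most genes do not differ between libraries, and counts per 1000000 reads (CPM) on it are called TMM-normalized CPM. Its factors were 0.482 to 0.907 in AG, 0.577 to 1.92 in MG and 0.525 to 1.74 in GC.

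Per length of transcript, the deposited RPKM values put Gpx1 and Bpgm first. The median RPKM over 17 libraries was 1.66 for Gpx1 and 1.57 for Bpgm. It was 0.499 for Cat, 0.221 for Blvrb, 0.105 for Car2 and 0.0833 for Prdx2. Each neighbouring pair in this order overlapped in range, for example Gpx1 at 0 to 6.13 and Bpgm at 0.427 to 4.28. Some related enzymes had median RPKM values in the same range, while Car3 (0.0646) and Car6, Hmox1, Hmox2 and Blvra (each 0) had medians below every member. Prdx6, a peroxiredoxin that uses glutathione, had a median RPKM of 0.655, the pentose phosphate enzyme gene Taldo1 0.637 and the plasma glutathione peroxidase gene Gpx3 0.619. Pkm, for pyruvate kinase, had a median RPKM of 0.415 and Aldoa, for aldolase, 0.203. Within groups the order of these medians turned, with Bpgm above Gpx1 for AG (3.19 against 2.60) and below it for MG (0.875 against 1.09) and for GC (0.920 against 1.66), and the AG level of Bpgm is what it was chosen for. Over all libraries, Gpx1 and Bpgm had higher medians than each of these listed genes, although the ranges overlapped.

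**Figure D1:**
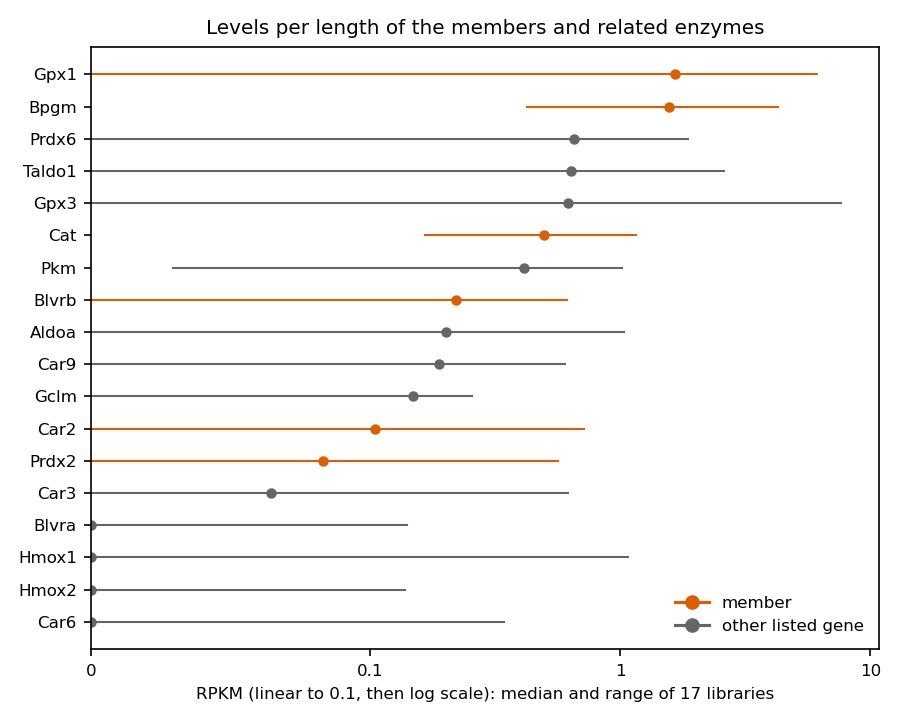
RPKM (linear to 0.1, then a log scale) of the 6 members in orange and of 12 related enzyme genes in grey, those with the most reads in each of 4 pathway lists. Points are medians and lines run from the lowest to the highest of 17 libraries; Gpx1 and Bpgm have the highest medians (1.66 and 1.57), and the ranges overlap.

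Bpgm was higher in AG than in both other groups on the TMM scale. Its TMM-normalized CPM in AG had a lowest value of 293, a median of 356 and a highest value of 479. In MG the lowest, median and highest values were 51.9, 103 and 243. The 5 GC libraries had 65.7, 44.5, 80.7, 161 and 154 TMM-normalized CPM. Every AG library lay above every MG and GC library, while MG and GC overlapped. The means were 363 ± 65.8 (SD, n = 6) in AG, 114 ± 68.8 (SD, n = 6) in MG and 101 ± 53.0 (SD, n = 5) in GC. The fitted log2 fold change was 1.85 (SE 0.456) for AG over GC and 1.68 (SE 0.425) for AG over MG. The median of all 272 genes was -0.21 and -0.17 in these comparisons. Every AG library exceeded every GC library in 1.1% of the 272 genes, every MG library in 1.84% and all libraries of both groups in 0.735%. Bpgm is among them, and because it was chosen on this contrast nothing is read from that count.

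The size of the Bpgm difference depended on the scale, and on 3 of the 4 scales plotted together its groups overlapped. Without TMM scaling, the fitted log2 fold change of Bpgm was 0.99 for AG over GC and 0.66 for AG over MG, at a median of all genes of -1.14 and -1.27. Per 1000000 of all counted reads, Bpgm averaged 229 ± 46.0 (SD, n = 6) in AG, 141 ± 82.2 (SD, n = 6) in MG and 113 ± 54.0 (SD, n = 5) in GC. On that scale 4 of 6 AG libraries lay above the highest GC library and 1 above the highest MG library. In RPKM, 3 of 6 AG libraries lay above the highest GC library and 4 above the highest MG library. The shallowest AG library, replicate 5, had 24 Bpgm reads or 208 per 1000000, with an exact (Clopper-Pearson) 95% interval of 133 to 309. Such intervals cover counting error only, since reads copied by PCR are not separate molecules.

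**Figure D2:**
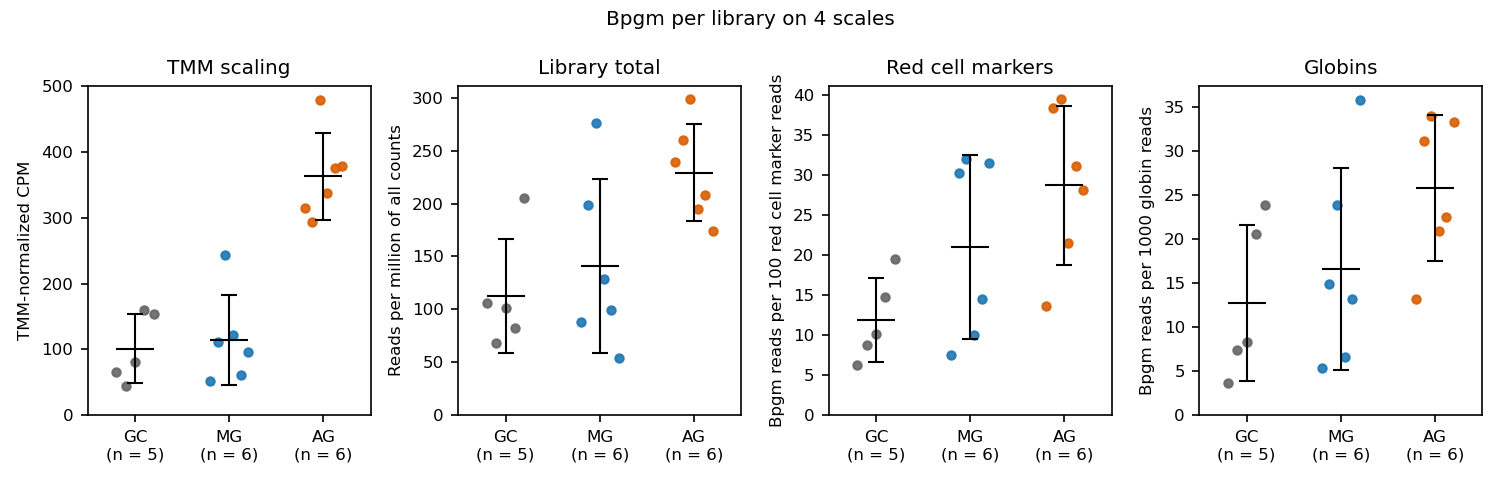
Bpgm in each of 17 libraries (points) with the group mean and SD (bars), as TMM-normalized CPM, reads per 1000000 of all counted reads, reads per 100 red cell marker reads and reads per 1000 globin reads. All 6 AG libraries lie above the other groups in the first panel, and the groups overlap in the other 3.

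Set against other red cell mRNA in the same library, Bpgm differed less between AG and MG than it did on the TMM scale. Here its reads were divided by the summed reads of 24 red cell markers other than globins, a ratio that does not use the scaling between libraries. Per 100 marker reads there were 28.7 ± 9.97 Bpgm reads over the 6 AG libraries (mean ± SD), 21.0 ± 11.5 over the 6 of MG and 11.9 ± 5.28 over the 5 of GC. In AG the ratio ran from 13.6 to 39.5, in MG from 7.52 to 32.0 and in GC from 6.29 to 19.6. All but 1 of the AG libraries lay above every GC library, and 2 of 6 lay above every MG library. On the log2 scale the ratio was higher by 1.29 in AG than in GC (2.45-fold) and by 0.59 in AG than in MG (1.51-fold). With globin reads as the denominator these differences were 1.27 and 0.87. On the TMM scale the red cell markers were also higher in AG on average. Summed over the 24 markers, the TMM-normalized CPM was 763 to 2308 in AG, 305 to 1217 in MG and 504 to 1084 in GC, and the 6 markers tested had a median log2 fold change of 0.85 for AG over GC and 1.202 for AG over MG. Of these 6, 0 passed the adjusted p in either comparison. Slc25a37 met the looser rule (an unadjusted p under 0.05 and over 1.5-fold) for AG over GC, and Alas2, Slc4a1, Slc25a37 and Epb41 met it for AG over MG, against 11.8% and 13.2% of the 272 genes. The lowest log2 fold change of the 6 was that of Bnip3l, 0.0075 for AG over GC. Per 1000000 of all counted reads, the summed markers averaged 897 for AG and 804 for MG against 1014 for GC. On that scale the AG mean lay below that of GC. None of the 24 markers was without a read. Their part in the Bpgm difference was not tested.

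Between MG and GC, a contrast that was not the reason for choosing Bpgm although the choice set AG against both groups, no difference in Bpgm was detectable. The log2 fold change was 0.17 (SE 0.448, 95% interval -0.755 to 1.10, edgeR quasi-likelihood adjusted p = 0.994). Its sign turned to -0.08 without MG replicate 3, the highest MG library, and to -0.03 without GC replicate 2. The ratio of Bpgm to the red cell markers was higher by 0.70 on the log2 scale in MG (exact two-sided permutation test, p = 0.186, n = 6 and 5), and that to globins by 0.40 (exact permutation p = 0.550).

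Bpgm reads were also set against the other enzymes of the same pathway. The list held 24 genes: those of glycolysis, its glucose transporter and the pentose phosphate shunt, such as Pkm, Aldoa and Taldo1, and the phosphatase gene Minpp1. In AG, Bpgm alone had 274 reads and the 24 genes together 179. In MG the counts were 107 and 279, and in GC 87 and 206. Bpgm exceeded the sum of the 24 genes in 6 of 6 AG libraries, 1 of 6 MG libraries and 0 of 5 GC libraries. The summed TMM-normalized CPM of the list was 234 ± 67.3 (SD, n = 6) in AG, 279 ± 85.2 (SD, n = 6) in MG and 224 ± 16.3 (SD, n = 5) in GC, with overlapping ranges. Per 1000000 of all counted reads the list averaged 148 ± 43.0 in AG, 347 ± 126 in MG and 284 ± 111 in GC (mean ± SD), so the AG mean was the lowest on that scale. Each of the 24 genes had reads, and 0 passed the expression filter, so none was tested. The 3 with the most reads, Taldo1 (127 reads), Pkm (123) and Aldoa (66), averaged 47.7, 57.2 and 23.4 TMM-normalized CPM in AG. In MG they averaged 47.4, 42.2 and 22.6, and in GC 31.2, 43.7 and 24.3. The AG values of this comparison rest on the reads for which Bpgm was chosen.

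**Figure D3:**
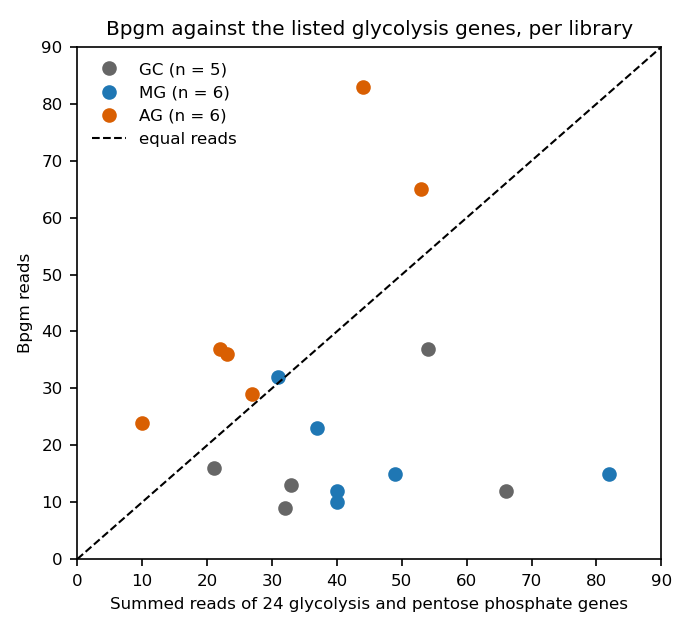
Bpgm reads (vertical) against the summed reads of the 24 listed genes (horizontal) in each of 17 libraries, with a dashed line at equal reads. The list covers glycolysis, the pentose phosphate shunt and Minpp1. All 6 AG libraries, 1 of 6 MG libraries and 0 of 5 GC libraries lie above the line.

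Gpx1, which reduces hydrogen peroxide with glutathione, had higher means in AG, but its differences did not pass the test. Its TMM-normalized CPM was 98.5 ± 61.7 for AG (mean ± SD, n = 6), 43.1 ± 29.0 for MG (n = 6) and 44.0 ± 16.2 for GC (n = 5). Its values ran from 0 to 166 in AG with a median of 111, and from 0 to 83.6 in MG with a median of 44.5. The 5 GC libraries had 58.4, 37.1, 43.5, 60.2 and 20.9. 4 of 6 AG libraries lay above every GC and MG library, and AG replicate 5, the shallowest of its group, had 0 reads, which allows up to 26.0 reads per 1000000. The log2 fold change of Gpx1 was 1.22 for AG over GC (SE 0.655, 95% interval -0.138 to 2.57, edgeR adjusted p = 0.422). It was 1.24 for AG over MG (SE 0.620, 95% interval -0.0400 to 2.53, edgeR adjusted p = 0.372). For MG over GC it was -0.03 (SE 0.669, 95% interval -1.41 to 1.36, edgeR adjusted p = 0.994). Without TMM scaling the Gpx1 means per 1000000 of all counted reads were 63.6, 52.6 and 52.9 in AG, MG and GC. Per 100 red cell marker reads, Gpx1 averaged 7.05 ± 4.06 reads for AG (mean ± SD, n = 6), 6.88 ± 4.11 for MG (n = 6) and 5.32 ± 1.69 for GC (n = 5), so the higher AG mean over MG was seen on the TMM scale and was small on this one. This ratio was not tested for Gpx1, which had libraries at 0.

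Few genes were called in these tests. With edgeR's quasi-likelihood test and an adjusted p under 0.05, 1.47% of the 272 genes (4 genes, all higher in AG) were called for AG over GC. Without TMM scaling 9 genes were called, 1 higher and 8 lower in AG. For AG over MG and for MG over GC 0% were called, with 36 and 12 genes at an unadjusted p under 0.05. Without TMM scaling, 58 genes were called for AG over MG, all lower in AG, and 0 for MG over GC. DESeq2 called 9 genes for AG over MG and 0 for MG over GC, and edgeR's exact test 3 and 0. With the looser rule that the study used (over 1.5-fold, with the p under 0.05 before adjustment) 11.8%, 13.2% and 4.41% were called in the order AG over GC, AG over MG and MG over GC. Gpx1 was called in 0 of the 3 comparisons by either rule.

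The remaining 4 genes were tested singly, by an exact two-sided permutation test of the mean log2(TMM-normalized CPM + 1). There were 12 such tests, unadjusted, so a p under 0.05 can arise by chance in some of them. The smallest p that these group sizes allow is 0.00216. A difference on this scale depends on the pseudocount for genes with few reads.

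Car2, the carbonic anhydrase of red cell cytosol, was higher in AG than in MG. AG replicates 1 to 6 had 5, 1, 3, 2, 4 and 1 reads, MG replicates 2, 0, 0, 1, 0 and 1, and GC replicates 2, 0, 1, 2 and 1. Every AG library thus had a read, against 3 of 6 MG and 4 of 5 GC libraries. As TMM-normalized CPM, the mean ± SD was 26.6 ± 22.0 for AG (n = 6), 4.42 ± 4.92 for MG (n = 6) and 9.01 ± 8.15 for GC (n = 5). The log2 difference was 2.72 for AG over MG (exact permutation p = 0.0195). All but 1 of the 6 AG libraries lay above every MG library, and the p stayed between 0.00866 and 0.0433 when single libraries were left out. The size of the difference depended on the scale. It was 1.21 with a pseudocount of 10 CPM (exact permutation p = 0.0130), and 4.26 with TMM factors or 4.25 with totals computed without the genes above 5% of the reads of any library (exact permutation p = 0.0130 and 0.0108). Without TMM scaling it was 2.08 (exact permutation p = 0.0563), and in a fit over 6270 genes with at least 5 reads the edgeR adjusted p was 0.340. For AG over GC the log2 difference was 1.65 (exact permutation p = 0.0996) and for MG over GC -1.07 (exact permutation p = 0.355). Per 100 red cell marker reads, Car2 averaged 1.87 reads in AG, 0.8003 in MG and 0.912 in GC, and 1 of 6 AG libraries lay above every MG library.

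Other carbonic anhydrases were scarce. Of 15 listed genes 8 had reads, 72 in all, and 0 passed the expression filter. Car9, a membrane-bound form, had 32 reads, with 20 in AG, 9 in MG and 3 in GC. Car3, a cytosolic form abundant in skeletal muscle and fat, had 25 reads, with 4 in AG, 16 in MG and 5 in GC. Car6, a secreted form, had 5.

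Cat, the catalase gene, had reads in every library, and its order among the groups differed from that of Bpgm. Its reads were 2, 10, 4, 4, 1 and 9 in AG replicates 1 to 6, 9, 3, 6, 6, 16 and 10 in MG replicates and 4, 5, 4, 4 and 7 in GC replicates. The TMM-normalized CPM averaged 42.6 ± 38.4 over the 6 AG libraries (mean ± SD), 50.2 ± 22.2 over the 6 MG libraries and 28.4 ± 7.89 over the 5 GC libraries. On this scale no comparison passed the test: the log2 difference was 0.25 for AG over GC (exact permutation p = 0.693), -0.43 for AG over MG (exact permutation p = 0.426) and 0.68 for MG over GC (exact permutation p = 0.130). All but 1 of the 6 MG libraries lay above every GC library, and without the lowest, MG replicate 2, the difference of MG over GC was 0.99 (exact permutation p = 0.00794). Without TMM scaling, Cat was lower in AG than in MG by -1.40 (exact permutation p = 0.0173), and its sign for AG over GC turned to -0.63.

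Relative to red cell marker reads, which were themselves lowest in MG, Cat was higher in MG. Per 100 red cell marker reads it had 10.4 ± 8.89 reads for MG (mean ± SD, n = 6), 3.49 ± 3.15 for AG (n = 6) and 3.40 ± 0.418 for GC (n = 5). The MG values ran from 3.95 to 26.3, and all of them lay above the GC values of 2.80, 3.68, 3.12, 3.70 and 3.70. The share of all genes that separate MG from GC on this ratio was not computed, so nothing is read from that separation. The summed markers averaged 627 TMM-normalized CPM in MG, 843 in GC and 1400 in AG. Per 1000000 of all counted reads they averaged 804, 1014 and 897 in the same order. MG replicate 6, which gave the 26.3, had 38 marker reads, the fewest of any library. The part of the markers in the Cat ratio was not tested. The log2 ratio differed by 1.24 for MG over GC (exact permutation p = 0.0152) and by -1.70 for AG over MG (exact permutation p = 0.0390), and by -0.45 for AG over GC (exact permutation p = 0.483). With globins as the denominator the MG over GC and AG over MG differences were 0.94 (exact permutation p = 0.238) and -1.42 (exact permutation p = 0.119). Leaving out single libraries gave an exact permutation p of 0.00794 to 0.0619 for MG over GC, above 0.05 without any 1 of the 5 GC replicates, and of 0.0173 to 0.0801 for AG over MG, above 0.05 without AG replicate 1, 3, 4 or 5 or MG replicate 1, 5 or 6. On the TMM scale, the 1 library richest in liver markers in each flight group was also the highest in Cat, but the other AG libraries did not keep this order. AG replicate 6 and MG replicate 6 had the most reads of 19 liver markers in their groups, 316 and 637 against 8 to 34 and 9 to 121 in the other AG and MG libraries and 18 to 41 in GC, and each had the highest TMM-normalized CPM of Cat in its group, 117 and 80.2. Per 1000000 of all counted reads, AG replicate 6 was again the highest of AG for Cat (54.1), while MG replicate 6 was the second lowest of MG (44.8, in a range of 25.9 to 106). Among the other AG libraries, replicates 2 and 4 had the fewest liver marker reads (10 and 8) but the next highest Cat, 45.2 and 36.5 TMM-normalized CPM. In MG, replicate 2 was lowest in both (9 reads and 14.4), and replicate 5 was next to replicate 6 in both (121 reads and 65.6). All 19 liver markers had reads, and their part in the Cat values was not tested. Without both libraries the TMM-scaled log2 difference of Cat was -0.11 for AG over GC and 0.53 for MG over GC.

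**Figure D4:**
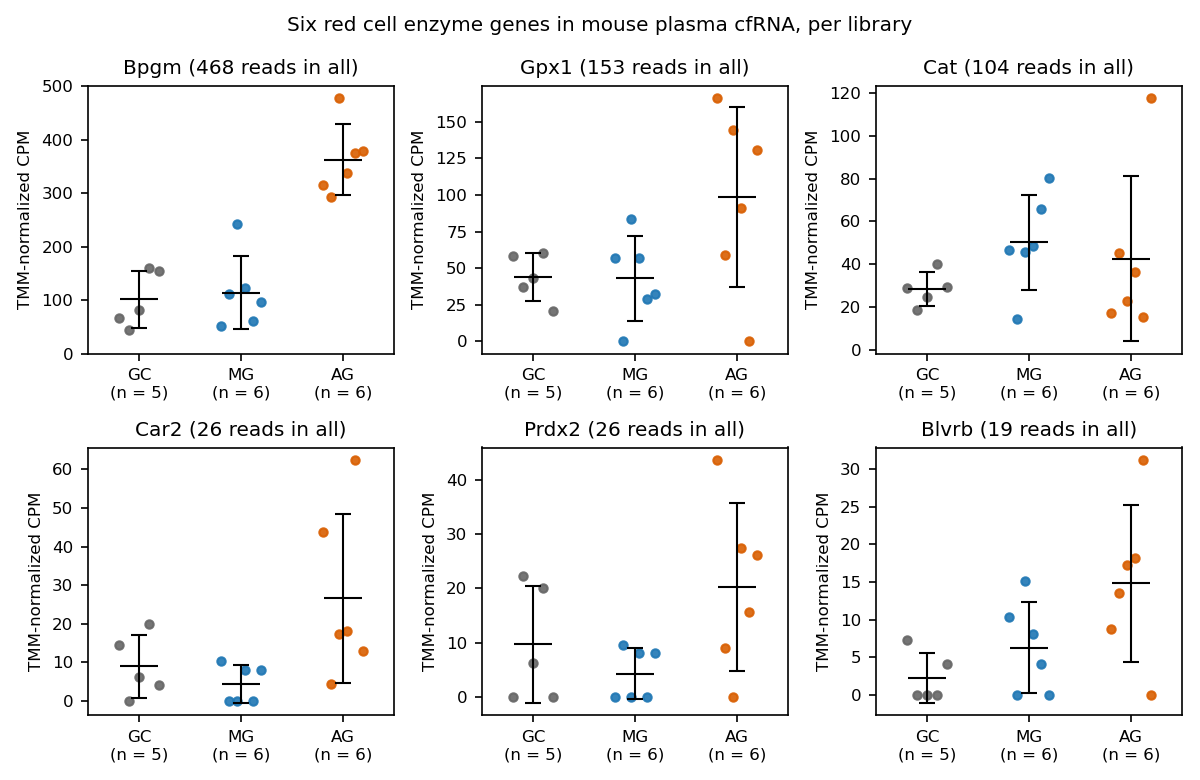
TMM-normalized CPM of the 6 genes in each of 17 libraries (points), with the group mean and SD (bars), each panel on its own linear axis. Bpgm in AG (293 to 479) stands above every MG and GC library, while the 5 other genes overlap between groups and Car2, Prdx2, Blvrb and Gpx1 have libraries at 0.

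Prdx2, an abundant peroxiredoxin of red cells, passed the test in 0 of the 3 comparisons. It had 5, 2, 0, 3, 1 and 2 reads in AG replicates 1 to 6, 0, 2, 0, 1, 0 and 1 in MG replicates and 0, 6, 1, 2 and 0 in GC replicates. Its TMM-normalized CPM was 20.3 ± 15.4 for AG (mean ± SD, n = 6), 4.29 ± 4.74 for MG (n = 6) and 9.70 ± 10.8 for GC (n = 5). The log2 difference was 2.11 for AG over MG (exact permutation p = 0.0736), 1.38 for AG over GC (exact permutation p = 0.271) and -0.73 for MG over GC (exact permutation p = 0.610). Without AG replicate 3, the AG library with no read, AG over MG gave 2.88 (exact permutation p = 0.0173), and with a pseudocount of 10 CPM it gave 0.96 (exact permutation p = 0.0390). Leaving out single libraries gave an exact permutation p of 0.0173 to 0.156 for AG over MG. Without TMM scaling the log2 difference was 1.56 (exact permutation p = 0.173), and in the fit over 6270 genes the edgeR adjusted p was 0.427. Per 100 red cell marker reads, Prdx2 averaged 1.34 reads for AG and 0.988 for MG against 1.41 for GC, so on that scale the AG mean was not above that of GC.

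Blvrb was the scarcest of the 6. It had 1, 3, 3, 2, 2 and 0 reads in AG replicates 1 to 6, 2, 0, 2, 1, 1 and 0 in MG replicates and 1, 0, 0, 0 and 1 in GC replicates. Its TMM-normalized CPM was 14.9 ± 10.5 for AG (mean ± SD, n = 6), 6.30 ± 6.06 for MG (n = 6) and 2.29 ± 3.33 for GC (n = 5). Its log2 difference was 2.35 for AG over GC (exact permutation p = 0.0519), 1.26 for AG over MG (exact permutation p = 0.216) and 1.09 for MG over GC (exact permutation p = 0.286). All but 1 of the 6 AG libraries lay above every GC library, and without AG replicate 6, which had no read, AG over GC gave 3.08 (exact permutation p = 0.00794) and AG over MG gave 1.97 (exact permutation p = 0.0455). Without GC replicate 1, AG over GC gave 2.83 (exact permutation p = 0.0429). Over all single libraries left out, the exact permutation p ran from 0.00794 to 0.114 for AG over GC and from 0.0455 to 0.429 for AG over MG. Without TMM scaling the log2 difference was 1.71 for AG over GC (exact permutation p = 0.104) and 0.52 for AG over MG (exact permutation p = 0.695). In the fit over 6270 genes the edgeR adjusted p for AG over GC was 0.461. Per 100 red cell marker reads, Blvrb averaged 1.22 reads for AG and 0.857 for MG against 0.246 for GC. The other genes of heme breakdown, Hmox2, Hmox1 and Blvra, had 5, 4 and 1 reads.

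Among 26 listed genes of peroxide and glutathione defence, 23 had reads, 699 in all, and Prdx6 and Gpx3 passed the filter. Prdx6 (167 reads) had a log2 fold change of -0.27 for AG over GC (edgeR adjusted p = 0.8497), -0.38 for AG over MG (edgeR adjusted p = 0.803) and 0.12 for MG over GC (edgeR adjusted p = 0.994). Gpx3 (122 reads) had -0.49, -1.79 and 1.30 in the same order, with edgeR adjusted p values of 0.837, 0.333 and 0.994, and for AG over MG it met the looser rule (edgeR unadjusted p = 0.0391). Its reads were 0 to 8 in AG, 2 to 43 in MG and 1 to 12 in GC. MG replicate 1 had 43 Gpx3 reads, at 223 TMM-normalized CPM, against 2 to 13 reads in the other MG libraries. The same library had 9 of the 11 kidney marker reads of MG, and the part of these markers in the Gpx3 value was not tested. When single libraries were left out, an alternative chosen after seeing the data, Gpx3 did not pass the expression filter without MG replicate 1, 3, 4 or 5 and was not tested there. Its looser call for AG over MG was lost without AG replicate 1, 2, 3, 4 or 5 (edgeR unadjusted p = 0.0523 to 0.0931). The log2 fold change in those fits was -1.84 to -1.44. The call held without MG replicate 2 or 6 (edgeR unadjusted p = 0.0237 and 0.0206). Without AG replicate 6 the log2 fold change was -2.96 (edgeR unadjusted p = 0.00197, adjusted p = 0.0859). For AG over GC the sign turned to 0.095 without GC replicate 3, and there MG over GC was 1.89 and met the looser rule (edgeR unadjusted p = 0.0452). Gclm, for a subunit of the enzyme that starts glutathione synthesis, had 57 reads and was not tested.

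The genes most like Bpgm over the 17 libraries were found by Spearman's correlation of TMM-normalized CPM, as a description across libraries that share group and scaling. Over 271 genes the median rho was -0.11. Hnrnpl (0.83), Polr2m (0.82), Trim39 (0.81), Mkrn1 (0.78) and Tmem38b (0.76) were highest. Polr2m and Tmem38b are 2 of the 4 genes that take the most reads. Without TMM scaling the same 5 genes had a rho of 0.31, 0.42, 0.57, 0.08 and 0.41. In the 6 AG libraries alone, on the TMM scale, their rho was 0.71, 0.49, 0.77, 0.26 and 0.89. In the 6 MG libraries alone it was -0.086, 0.66, 0.54, 0.31 and 0.37. The rank over all libraries thus also draws on the group difference for which Bpgm was chosen. Among the red cell markers, Slc4a1, the band 3 anion exchanger, ranked 7 (rho 0.76) and Slc25a37, a mitochondrial iron importer of erythroid cells, ranked 12 (rho 0.72), while Bnip3l ranked 68 (rho 0.12). The globins ran from Hba-a2 at rank 21 (rho 0.61) to Hbb-bs at rank 53 (rho 0.26). Gpx1 ranked 26 (rho 0.52), Prdx6 166 (rho -0.19) and Gpx3 229 (rho -0.38). Without TMM scaling the rho with Bpgm was 0.44 for Slc4a1, 0.45 for Slc25a37, 0.38 for Hba-a2 and 0.17 for Gpx1. Within the 6 AG libraries and the 6 MG libraries taken alone, the rho was 0.26 and 0.54 for Slc4a1, -0.14 and 0.89 for Slc25a37, 0.029 and 0.54 for Hba-a2 and 0.20 and 0.26 for Gpx1.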

How the data were processed

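Plasma cfRNA of 17 mice was sequenced by the authors as 2 × 36-base reads after a small RNA library kit (2.5 μl of RNA from 50 μl of plasma), mapped to mm10 and quantified in CLC Genomics Workbench. The deposited counts are whole reads per gene without normalization. The RPKM values were scaled by the authors for length and mapped reads, and the deposited TPM column was not used. Trimming, strand and the handling of reads with several matches are not given in the sources used here. The members and lists were chosen with earlier results of these data known.

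Tests ran in edgeR 4.0.16 (R 4.3.3): filterByExpr by group (272 genes kept), TMM, glmQLFit and glmQLFTest over all libraries without covariates, Benjamini-Hochberg over 272 genes. CPM on the TMM scale is per 1000000 reads of the kept genes times the TMM factor. Members below the filter were tested by exact permutation with a pseudocount of 1 CPM. Scripts were tested on simulated data. Alternatives were no TMM, TMM or totals without the 4 dominant genes, DESeq2 1.42.0, edgeR's exact test, all genes with at least 5 reads, only the groups compared, the replicate number as a block, a pseudocount of 10 CPM, globins as denominator and leaving out libraries. The total without the dominant genes and the removal of AG replicate 6 with MG replicate 6 were added after seeing the data. Named genes were the members, the 3 genes of each pathway list with the most reads or passing a call rule, the 5 genes most like Bpgm and the genes above 5% of a library. Markers named beside them were chosen after their values were seen. No library was a duplicate of another (136 pairs, chi-square over degrees of freedom at least 5.46). Library totals of 84657 to 277682 reads limit the precision of genes with few reads. An upper limit for 0 reads was set at 3 reads.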

Additional observations from a re-analysis of the deposited data

Results flagged for a closer look

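In 18 sets of values (6 genes in 3 groups), the gap of the highest or lowest library to its neighbour was compared with the range of the group by Dixon's criterion, which chance meets in about 0.9 of 18 sets. It was met in 2. Bpgm in MG replicate 3 was 243 TMM-normalized CPM, from 32 reads, against 122 in the next MG library, a gap of 0.635 of the group's range. Cat in AG replicate 6 was 117 TMM-normalized CPM, from 9 reads, against 45.2 in the next AG library, a gap of 0.7101 of the range.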

How the results depend on the processing

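The log2 fold change of Bpgm stayed positive for AG over GC (0.99 to 2.09) and AG over MG (0.66 to 2.03) in all 20 and 21 alternatives, the lowest being those without TMM scaling. Since Bpgm was chosen for its rise in AG in these same libraries, nothing is read from that sign. Without TMM scaling, Gpx1 for MG over GC was 0.030, Cat for AG over GC -0.63, Car2 for AG over MG 2.08 (exact permutation p = 0.0563) and Cat for AG over MG -1.40 (exact permutation p = 0.0173), and 9 and 58 genes were called for AG over GC and AG over MG, 8 and 58 of them lower in AG. DESeq2 with its own size factors called 8 and 9 genes, the exact test with TMM 8 and 3, and the fits of the compared groups alone 1 and 1. With all genes of at least 5 reads the counts were 0, 6 and, for MG over GC, 10, and Car2 for AG over MG was 2.15. With reads outside the dominant genes as the total, Car2 for AG over GC was 2.34 (exact permutation p = 0.0455). Blvrb for AG over GC was 2.24 in the compared groups alone (exact permutation p = 0.0476) and 0.93 with a pseudocount of 10 CPM (exact permutation p = 0.0325), where Prdx2 for AG over MG was 0.96 (exact permutation p = 0.0390). Without AG and MG replicates 6, Gpx1 for MG over GC was 0.051, Cat for AG over GC -0.11 and Blvrb for AG over GC 3.11 (exact permutation p = 0.00794). With globins as the denominator the Cat ratio was -1.42 for AG over MG and 0.94 for MG over GC. The cause of these shifts was not tested.

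When single libraries were left out, the counts ran from 0 to 6 for AG over GC (0 without GC replicate 2, 3 or 5, 1 without GC replicate 1, 2 without AG replicate 1 or 3), from 0 to 10 for AG over MG (5 without AG replicate 2, 3 without MG replicate 3, 10 without MG replicate 4) and from 0 to 1 for MG over GC (1 without GC replicate 4). Cat ran from -0.11 to 0.45 for AG over GC and from 0.52 to 0.99 for MG over GC. Prdx2 ran from 1.76 to 2.88 for AG over MG. Blvrb ran from 2.06 to 3.08 for AG over GC and from 0.83 to 1.97 for AG over MG. For MG over GC, Bpgm ran from -0.084 to 0.43 and Gpx1 from -0.20 to 0.26. The Cat ratio ran from -2.06 to -1.35 for AG over MG and from 0.90 to 1.45 for MG over GC. In several of these fits Gpx1 failed the filter and has no value.

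The replicate numbers did not pair the samples: the deviations of 16 same-numbered pairs had correlations of -0.47 to 0.59, and 5 of 17 libraries correlated best with their own number. With the replicate block, 3 genes were called for AG over MG against 0 without it, and no call on Bpgm for MG over GC or on Gpx1 changed. The few reads limit Car2, Prdx2 and Blvrb most.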
